A study of Mus musculus with 6 samples.

Results

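The lens fiber transcription factors described here were Maf, Mafg, Prox1, Pitx3, Hsf4 and Gata3, 6 genes chosen by name for their roles in the differentiation of lens fiber cells. All probe sets of the array that carry a single gene symbol among these names were taken, which gave 7 probe sets of 22626 tested, 2 for Mafg and 1 for each of the other genes. RNA came from newborn (1-day old) lenses of 3 wild-type mice (NMRI background) and of 3 Pax6 heterozygous mice, in which lacZ takes the place of a Pax6 copy (Pax6 lacZ/+). Each sample pooled the pair of lenses of a single mouse. P values therefore rest on the spread between mice of a genotype, together with anything that differs between replicate numbers. Where replicate number is added to the fit, they rest on the spread of the differences within same-numbered pairs. The loss is in the germline, so it affects the tissues around the lens as well as all lens cells. Signal intensities were normalized by the authors with RMA, which combines the probes of a probe set into a single value, and are given here on the linear scale. Genotype differences are log2 ratios of heterozygous to wild-type signal with p values from limma, and adjusted p values (Benjamini-Hochberg) take in the whole set of tested probe sets. Levels of different genes are not compared, since brightness also depends on the probes.

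The lens grows by adding fiber cells at its equator, where epithelial cells leave the cell cycle, elongate, fill with crystallins and finally lose their nuclei and other organelles. Maf (c-Maf), a large Maf protein of the bZIP class, activates crystallin genes, and Mafg, a small Maf protein without an activation domain, binds similar DNA sites as a homodimer or with CNC and Bach proteins. Prox1 and Pitx3 are homeodomain proteins, Hsf4 is a heat shock factor of the lens, and Gata3 is a zinc finger protein. Mutations of Maf, Pitx3 and Hsf4 are known causes of cataract or of a small lens, and Pax6 acts upstream of several of these genes in the early lens.

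Pax6 itself, the gene whose dose differs between the groups, read 1169, 1760 and 963 in wild-type replicates 1, 2 and 3 and 942, 1170 and 882 in the heterozygous ones at its brightest probe set. The heterozygous sample was the lower one in 3 of 3 pairs with the same number, but the groups overlapped (−0.34 ± 0.24, standard error; unadjusted p = 0.208, adjusted p = 1.00). The paper also reported reduced Pax6 transcripts by quantitative RT-PCR, and less Pax6 protein in the bow region of heterozygous lenses by immunostaining. Samples with the same replicate number varied together, with correlations of their deviations from the genotype means of 0.604 to 0.734. With the number added to limma as a block, the standard error of the Pax6 difference was 0.12 (unadjusted p = 0.0315, adjusted p = 0.509). Over all tested probe sets, limma called 0 at an adjusted p under 0.05 (0%), and 2 with the block (0.00884%), none of them a probe set of the 6 genes. At an unadjusted p under 0.05 there were 450 (1.99%) without the block and 2042 (9.03%) with it. As a guide to background, 33 probe sets of olfactory receptor genes had median signals between 8.16 and 13.4. Fiber cells were well represented, since all 14 measured crystallin genes had a median signal above 100 (median 12932 over the list).

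Gata3 and Mafg had lower signals in Pax6 heterozygous than in wild-type lenses, with no overlap between the groups at the brightest probe set of either gene. The heterozygous mean stood at 63.7 ± 12.6% of the wild-type mean for Gata3 and at 77.7 ± 6.53% for Mafg (SD, n = 3 mice). Hsf4 was lower in each same-numbered pair by a smaller amount, while Prox1, Maf and Pitx3 had no common direction across the pairs. No probe set of the 6 genes passed the adjusted threshold.

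**Figure D1:**
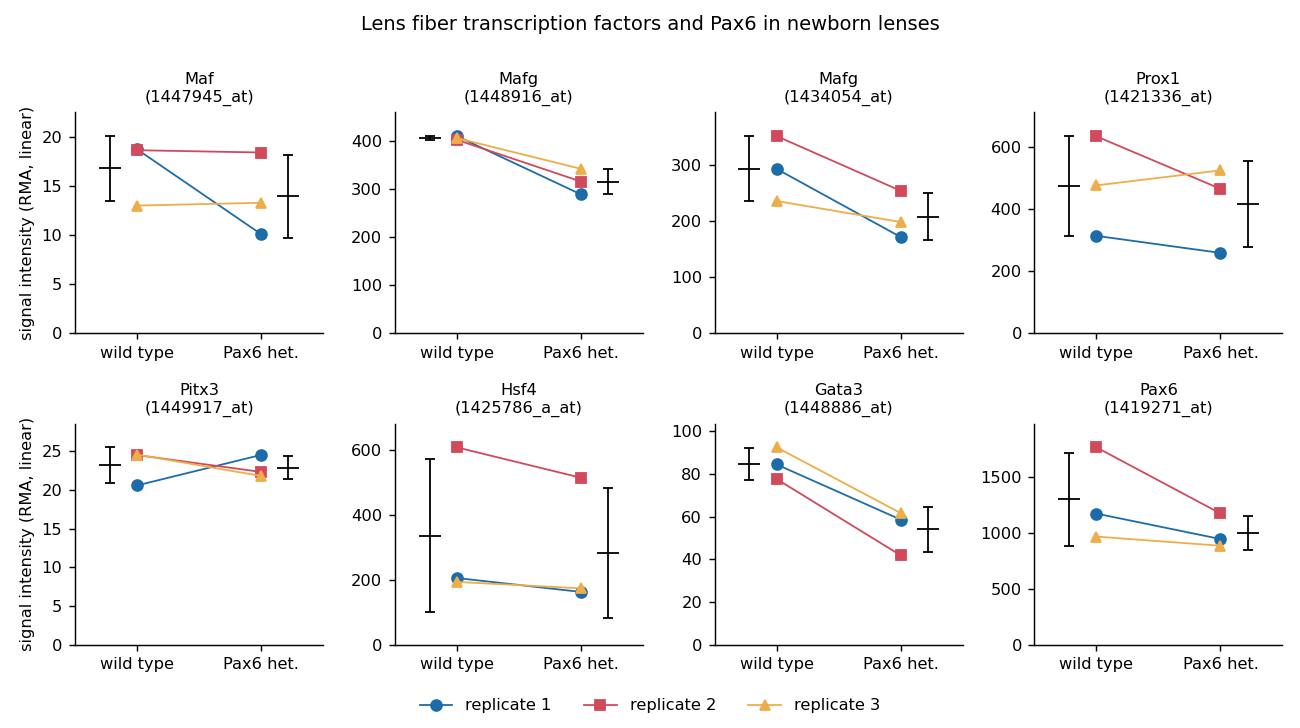
Signal intensity (RMA, linear scale, axes from 0) of the 7 probe sets of the lens fiber transcription factors and of the brightest Pax6 probe set in 3 wild-type and 3 Pax6 heterozygous lens samples. Colored symbols are samples and lines join those with the same replicate number; black dashes with bars are mean ± SD. All heterozygous points lie below all wild-type points for Gata3 and for the first Mafg probe set.

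All 7 probe sets had a mean difference below 0, as did 53.5% of all tested probe sets. Of the 7, 2 had lower values in every heterozygous sample than in any wild-type sample, those of Gata3 and of Mafg, where 3.53% of all tested probe sets had this pattern. The same 2 had an unadjusted p under 0.05 and a lower signal with limma, against 1.01% of all tested probe sets. In 4 of the 7 the heterozygous sample was lower in 3 of 3 pairs (both Mafg probe sets, Gata3 and Hsf4), against 17.1% overall. With the replicate block these 4 had an unadjusted p under 0.05, against 4.59% of all probe sets on the lower side. The methods' t-test gave a p under their threshold of 0.10, unadjusted, for the same 2 probe sets, against 5.86% of all probe sets in either direction and 3.45% on the lower side, and none after Benjamini-Hochberg adjustment. Among probe sets with a median signal of at least 50, which 5 of the 7 reached, the shares were 2.49% without overlap and lower, 1.15% lower at an unadjusted p under 0.05 and 21.2% lower in all pairs. The probe sets of Mafg read the same gene, so these counts describe single genes and say nothing of the 6 genes as a group. The exact permutation test over 3 against 3 samples cannot give a two-sided p below 0.1.

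Gata3, which is needed for fiber cells to leave the cell cycle and differentiate, had the largest difference of the 6 genes. Its probe set read 84.5, 77.6 and 92.5 in wild-type replicates 1, 2 and 3 and 58.6, 41.8 and 61.7 in the heterozygous ones. Every heterozygous value lay below the lowest wild-type value, and replicate 2 was the lowest sample of both groups. The means were 84.9 ± 7.45 and 54.0 ± 10.7 (SD, n = 3 mice each), and the log2 difference was −0.67 ± 0.18 (standard error; 95% interval −1.10 to −0.24). The limma p was 0.00864 before and 1.00 after adjustment, and the exact permutation p was 0.1, the smallest that 3 against 3 samples allow. The heterozygous samples stood at 69.4%, 53.9% and 66.7% of the wild-type sample of the same number. With the replicate block the standard error was 0.11 (unadjusted p = 0.00119, adjusted p = 0.264). Gata3 is also used by T cells and by some surface epithelia, whose markers had low signals. The 5 measured T cell genes had a median signal of 10.1, and their summed signal was at most 58.3 in wild-type and 68.6 in heterozygous samples. Cd3g, a chain of the T cell receptor complex, lay above the olfactory receptor range in heterozygous replicate 3 (20.8) and was higher in 3 of 3 pairs (0.44 ± 0.25, standard error; unadjusted p = 0.126, and 0.0151 with the block, limma). Cd4 read 17.4 in heterozygous replicate 3 and was also above that range in wild-type replicates 1 and 3, and Cd3e was within the range in all samples or below it. Il7r, a cytokine receptor of lymphocytes, differed by −0.27 ± 0.16 (unadjusted p = 0.141). The 5 genes of cornea and skin epithelium had a median of 11.0, with sums of 55.5 to 60.6 and 54.2 to 59.3. Trp63, a factor of stratified epithelia, differed by −0.25 ± 0.27 (unadjusted p = 0.388) and read 17.4 in wild-type replicate 1, and Krt14, a keratin of basal epithelial cells, differed by 0.07 ± 0.13 (unadjusted p = 0.631). The part of these cells in the Gata3 signal was not tested. Because whole lenses were measured, fewer cells with a transcript and less of it per cell cannot be told apart here.

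The start of the Gata3 gene is shown because this gene had the largest difference. The sequence is that of RefSeq (GRCm38.p6, chr2:9878551-9878850, minus strand), 300 bases that end shortly after the start site, and capitals mark the letters TGCTGA, the half-site bound by Maf proteins.

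Gata3: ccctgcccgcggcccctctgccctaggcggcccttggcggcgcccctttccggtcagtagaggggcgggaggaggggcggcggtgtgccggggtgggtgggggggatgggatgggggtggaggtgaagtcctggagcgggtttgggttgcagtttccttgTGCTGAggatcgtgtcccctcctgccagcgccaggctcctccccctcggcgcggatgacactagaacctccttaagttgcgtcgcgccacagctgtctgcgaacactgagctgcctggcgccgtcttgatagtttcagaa

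The half-site begins at position −90 from the start site. On either strand, TGCTGA occurs in 19.5% of all 32851 promoters of this length, so a single match is common, and it is a match of letters and not a shown binding site.

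Mafg, the small Maf protein, was lower in Pax6 heterozygous lenses at both of its probe sets in all 3 pairs. The brighter one read 409, 402 and 405 in wild-type replicates 1, 2 and 3 and 288, 315 and 341 in the heterozygous ones. The wild-type values were within 1.02-fold of each other, and all heterozygous values lay below them. The means were 405 ± 3.85 and 315 ± 26.5 (SD, n = 3 mice each). The log2 difference came to −0.37 ± 0.11 (standard error; 95% interval −0.64 to −0.09). The limma p was 0.0168 before and 1.00 after adjustment, and the exact permutation p was 0.1. This probe set is on the list of changed transcripts that the study drew from these same samples, so its direction here is no independent evidence.

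The dimmer Mafg probe set read 293, 351 and 236 in wild-type replicates 1, 2 and 3 and 172, 254 and 198 in the heterozygous ones. The groups overlapped here, since heterozygous replicate 2 lay above wild-type replicate 3, but within each pair the heterozygous sample was lower, at 58.6%, 72.3% and 84.1% of wild type. The pairs of the brighter probe set stood at 70.5%, 78.5% and 84.2%, with the pair numbered 1 farthest apart at both. The log2 difference of the dimmer probe set was −0.50 ± 0.21 (standard error; upper end of the 95% interval 0.01; unadjusted p = 0.0526, exact permutation p = 0.2). With the replicate block the unadjusted p was 0.00867 (adjusted p = 0.406), and for the brighter one it was 0.0125 (adjusted p = 0.441). Without heterozygous replicate 1 the brighter probe set differed by −0.31 and no longer had an unadjusted p under 0.05 (0.0577).

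The start of the Mafg gene (RefSeq, GRCm38.p6, chr11:120633498-120633797, minus strand) is shown beside that of Gata3, since these were the genes with a difference at an unadjusted p under 0.05.

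Mafg: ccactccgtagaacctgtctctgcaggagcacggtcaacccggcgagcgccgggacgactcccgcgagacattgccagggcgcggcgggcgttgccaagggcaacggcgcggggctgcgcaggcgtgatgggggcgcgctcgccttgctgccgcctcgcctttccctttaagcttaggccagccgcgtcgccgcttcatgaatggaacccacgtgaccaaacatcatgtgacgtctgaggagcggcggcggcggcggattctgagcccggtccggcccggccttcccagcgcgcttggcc

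Of the members, Mafg, Prox1, Pitx3 and Gata3 were matched to RefSeq promoters, with 5 promoters in all. Maf and Hsf4 were not matched. Each was searched on both strands for 4 short motifs, and the Maf half-site in Gata3 was the only match in the 5 promoters. The core of sites bound by the paired domain of Pax6 was searched as TTCACGC and occurs in 1.26% of all promoters. A GATA site, searched with the letters AGATAA, occurs in 11.2% of them. The heat shock element, bound by Hsf proteins as an inverted repeat, was searched by its core GAANNTTC, which 7.86% of all promoters hold. Absence says only that these letters are not in the window.

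Hsf4, the heat shock factor of the lens, varied far more between replicate numbers than between genotypes. Its probe set read 205, 609 and 193 in wild-type replicates 1, 2 and 3 and 163, 515 and 174 in the heterozygous ones. Replicate 2 was about 3 times as bright as the others in both genotypes (highest over lowest sample 3.15 in wild type and 3.17 in heterozygous lenses), so the groups overlapped. Within the pairs the heterozygous sample was lower each time, at 79.1%, 84.6% and 89.8% of wild type. The log2 difference was −0.24, with a standard error of 0.61 without the block (95% interval −1.70 to 1.21; unadjusted p = 0.699) and of 0.10 with it (95% interval −0.49 to −0.0017; unadjusted p = 0.0488, adjusted p = 0.552). Without the pair numbered 1, 2 or 3, the block fit gave an unadjusted p of 0.179, 0.125 or 0.0744. Without the block the direction turned when wild-type replicate 2 (0.29), heterozygous replicate 1 (0.05) or heterozygous replicate 3 (0.00085) was left out.

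**Figure D2:**
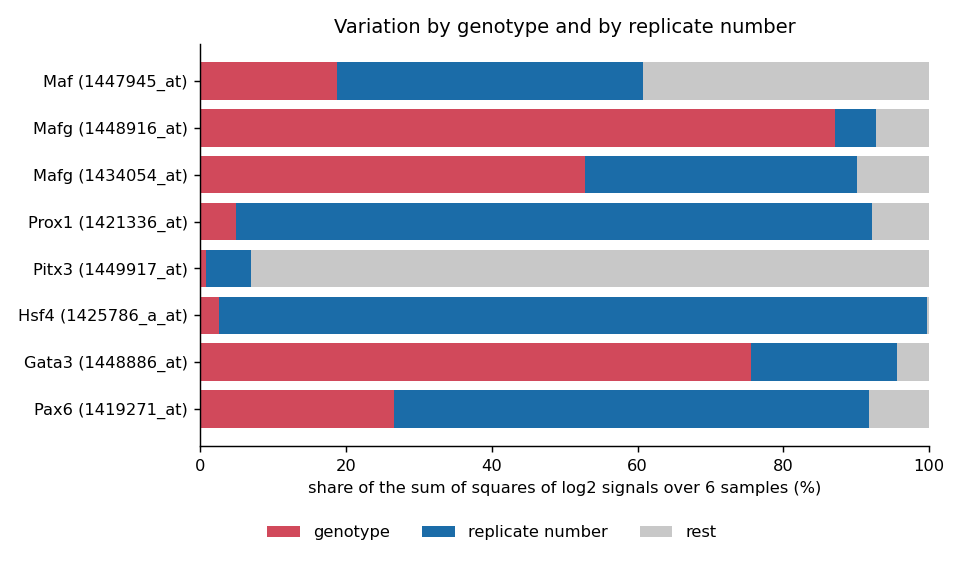
Share of the sum of squares of log2 signals over the 6 samples (horizontal axis, percent) that lies between genotypes, between replicate numbers and in the rest, for each probe set of the fiber transcription factors and for the brightest Pax6 probe set. Replicate number takes 97.2% for Hsf4 and 87.4% for Prox1, and genotype takes 87.1% for the brighter Mafg probe set and 75.5% for Gata3.

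Split by sums of squares, replicate number took 97.2% of the variation of Hsf4, 87.4% of that of Prox1 and 5.67% of that of the brighter Mafg probe set. The median over all tested probe sets was 64.6%, so Hsf4 and Prox1 lay above it and Mafg and Gata3 (20.2%) below it. Genotype took 87.1% for the brighter and 52.8% for the dimmer Mafg probe set and 75.5% for Gata3, against a median of 7.68% over all probe sets. The share for Pitx3 was 0.800%.

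Prox1, which fiber cells need to elongate and to stop dividing, had no common direction. Its probe set read 314, 634 and 477 in wild-type replicates 1, 2 and 3 and 259, 466 and 525 in the heterozygous ones. Replicate 1 was lowest in both genotypes, and the heterozygous sample was lower in the pairs numbered 1 and 2 and higher in the pair numbered 3. The pairs stood at 82.5%, 73.4% and 110% of wild type. The log2 difference was −0.19 ± 0.35 (standard error; 95% interval −1.04 to 0.65; unadjusted p = 0.600), and with the block the interval was −0.53 to 0.14 (unadjusted p = 0.209). A difference as large as that of Gata3 lies inside the first interval and outside the second. The direction turned without wild-type replicate 2 (0.04) and without heterozygous replicate 1 (0.12).

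Prox1 is also a gene of lymphatic endothelium. Markers of blood and lymphatic endothelium were measured for 9 of 9 listed genes, with a summed signal of 1573 to 2646 in wild-type and 1906 to 3006 in heterozygous samples. All 9 had a difference above 0 at their brightest probe sets. Of their dimmer probe sets, those of Flt4 and Lyve1 also lay above 0 (0.44 and 0.65). That of Cdh5, of median signal 11.2, was lower in 3 of 3 pairs (−0.30; limma unadjusted p = 0.0897, and 0.0301 with the block). Pecam1, an adhesion molecule of endothelium (0.55 ± 0.22), and Tek, the receptor of angiopoietins (0.52 ± 0.23), had the smallest unadjusted p among the 9 (0.0449 and 0.0657, limma). Wild-type signals of Pecam1 (12.4, 9.65 and 9.62) lay within the range of the olfactory receptors. Lyve1, a hyaluronan receptor found on lymphatic endothelium and macrophages, read 222, 26.9 and 36.8 in wild-type replicates 1, 2 and 3 and 241, 114 and 28.4 in the heterozygous ones. It was highest in replicate 1, where Prox1 was lowest. The part of these cells in the Prox1 signal was not tested.

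Maf and Pitx3 had dim signals. The Maf probe set read 18.8, 18.7 and 13.0 in wild-type replicates 1, 2 and 3 and 10.1, 18.5 and 13.3 in the heterozygous ones. The groups overlapped, and heterozygous replicate 1 was the lowest sample. That sample and both samples numbered 3 lay within the range of the olfactory receptor probe sets. The pairs stood at 53.9%, 98.7% and 102% of wild type, so the mean difference of −0.29 ± 0.26 (standard error; 95% interval −0.92 to 0.33; unadjusted p = 0.300) came from the pair numbered 1, and without that pair it was 0.0066. Maf is known as a strongly expressed gene of lens fibers, and its level cannot be read from a probe set this close to background. Macrophages, which also use Maf, varied between samples. The summed signal of their 8 listed markers was 356 to 1281 in wild-type and 232 to 1435 in heterozygous samples. Cd68, a lysosomal protein of macrophages (0.68 ± 0.39), and C1qa, a complement subunit (0.72 ± 0.48), had the smallest unadjusted p of the list (0.131 and 0.183, limma). Their part in the Maf signal was not tested.

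Pitx3, the gene mutated in the aphakia mouse, read 20.6, 24.5 and 24.6 in wild-type replicates 1, 2 and 3 and 24.5, 22.3 and 21.8 in the heterozygous ones. The groups overlapped almost wholly, with a log2 difference of −0.02 ± 0.13 (standard error; 95% interval −0.32 to 0.29; unadjusted p = 0.893). This interval leaves out a difference as large as that of Gata3. The signal was low, so the interval holds for the signal and not for the RNA.

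**Figure D3:**
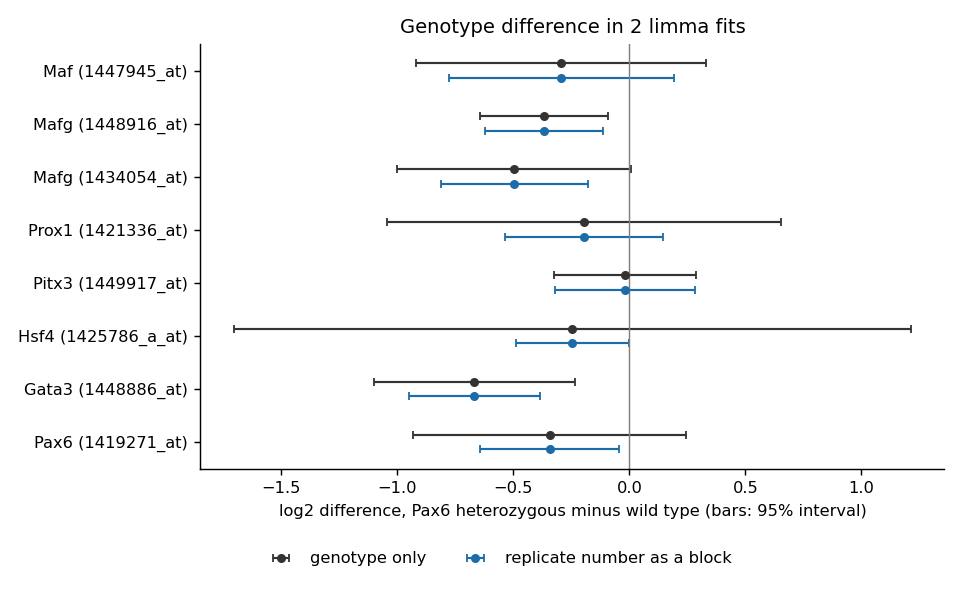
Log2 difference, Pax6 heterozygous minus wild type (horizontal axis), of each probe set of the fiber transcription factors and of the brightest Pax6 probe set, with 95% intervals from limma. Black points come from the fit with genotype only and blue points from the fit that also has the replicate number. The blue interval is much narrower for Hsf4 and Prox1, and both intervals lie below 0 for Gata3 and for the brighter Mafg probe set.

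The 6 genes did not vary as one group across the samples. Over the 6 samples, which share replicate numbers, the log2 signal of Hsf4 correlated with that of the brightest Pax6 probe set at r = 0.85 and with that of Gata3 at r = −0.29. The dimmer Mafg probe set correlated with Maf at r = 0.89, with Pax6 at r = 0.89 and with the brighter Mafg probe set at r = 0.74. The brighter one correlated with Gata3 at r = 0.83, and at r = 0.11 once the genotype means were removed. Gata3 and Hsf4 stood at r = −0.88 after that removal, with replicate 2 lowest for Gata3 and highest for Hsf4 in both genotypes.

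Each gene was also set beside all genes with a median signal of at least 100, to name the 2 whose pattern over the 6 samples was most like it. For Gata3 these were Ank3, which encodes ankyrin G of the membrane skeleton (r = 0.99), and Pdrg1 (r = 0.98). Ank3 read 860, 784 and 877 in wild-type replicates 1, 2 and 3 and 642, 535 and 663 in the heterozygous ones, and so repeated the low replicate 2 of Gata3. For Mafg these were Cipc, a repressor of the circadian clock (r = 0.98), and Fip1l1, a factor of polyadenylation (r = 0.97). Cipc read 521, 521 and 527 in wild type and 407, 431 and 434 in heterozygous lenses.

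The genes most like Prox1 were Lars, a leucyl-tRNA synthetase, and Eepd1, and those most like Hsf4 were Rnf7, a RING protein of cullin ligases, and Tex264, all 4 at r of 0.99 or more. For the dim probe sets they were Mark3 and Pdcd2 for Maf (r = 0.97 and 0.95) and Sun1 and Wdr45b for Pitx3 (r = 0.94 and 0.93). With 6 samples and 4492 genes, high values of r are found for many patterns. An r of at least 0.9 was reached by 436 genes for Hsf4, 115 for Prox1, 25 for Gata3, 22 for Mafg, 10 for Maf and 4 for Pitx3.

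No relative or partner of the 6 genes had a limma unadjusted p under 0.05 at its brightest probe set. Of the other large and small Maf genes, 3 were measured, Maff, Mafk and Nrl, and all 3 lay above 0, but none had an unadjusted p under 0.05. Maff, a small Maf protein like Mafg, read 37.6, 35.7 and 37.3 in wild-type replicates 1, 2 and 3 and 80.7, 34.2 and 40.6 in the heterozygous ones. Its difference of 0.39 ± 0.31 (standard error; unadjusted p = 0.262) thus rests on heterozygous replicate 1, the sample in which Mafg was lowest at both probe sets. Mafk differed by 0.11 ± 0.17 (unadjusted p = 0.537).

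The CNC and Bach proteins pair with small Maf proteins to bind DNA. All 6 listed were measured, 2 lay above 0 and 4 below, with a median of −0.10, and none had an unadjusted p under 0.05. Bach2, a repressor of this family, had the smallest p of them with a difference of −0.29 ± 0.24 (standard error; unadjusted p = 0.273), followed by Nfe2l2 (Nrf2), the regulator of the response to oxidative stress, with −0.23 ± 0.22 (unadjusted p = 0.326). Other members of the Prox, Pitx, Hsf and Gata families and the Fog cofactors had a median signal of 11.3 over 9 measured genes. That median lay within the range of the olfactory receptors, and none had an unadjusted p under 0.05. Gata2 (median signal 30.5) and the Fog genes Zfpm1 (22.5) and Zfpm2 (15.4) lay above the range. Gata2 read 83.6 in wild-type and 88.2 in heterozygous replicate 1. Pitx1 (0.24 ± 0.18 at its brighter and −0.16 ± 0.15 at its dimmer probe set) and Gata1 (−0.12 ± 0.16) had the smallest p among them. Other regulators of the lens split evenly, with 7 of 14 above 0 and a median of 0.0016. Sox2 (−0.22 ± 0.15, standard error) and Hes1, a target of Notch signaling (0.41 ± 0.31), had the smallest p there (0.187 and 0.232).

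The genes that the fiber factors are known to act on were described in 3 lists. Crystallins had small differences in signal, at the upper end of the intensity scale. At the brightest probe sets of the 14 measured, 5 lay above 0 and 9 below, with a median of −0.03. None of these had an unadjusted p under 0.05 in either fit. A dim Cryab probe set, of median signal 11.1, was higher without overlap between the groups (0.39; limma unadjusted p = 0.0199, and 0.0165 with the block). Crygn, a gamma-crystallin, had the smallest p at a brightest probe set and was lower in all 3 pairs, with no overlap between the groups (9086 ± 665 and 7866 ± 810, −0.21 ± 0.13, standard error, limma unadjusted p = 0.153). Crybb1 differed by −0.08 ± 0.11 (unadjusted p = 0.478). The brightest probe sets may be saturated, so equal signals do not show equal RNA. Crybb3 read 15207 in both samples numbered 2, and Cryga read 13633 in all 3 wild-type samples. Higher readings occurred, with Cryga at 14113 in heterozygous replicate 3, and the cause of the equal readings was not tested.

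Maf proteins act on crystallin genes through sites that hold the half-site TGCTGA. Of 15 promoters of listed crystallin genes, 10 held it on either strand (66.7%), against 19.5% of all promoters. The 30 bases around the half-site are shown for 3 of these crystallin genes, for Mip, the main water channel of fiber membranes, and for Bfsp1 (filensin) of the fiber cytoskeleton, to show the site in genes that fiber cells use. Capitals mark the half-site, as TGCTGA or as its reverse complement. The sequences run in the direction of the gene and come from RefSeq (GRCm38.p6).

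Cryaa (chr17:31677811-31677840, plus strand): gagcattccagcTGCTGAcggtgcagcctc

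Crybb1 (chr5:112255724-112255753, plus strand): cccatccaggttTGCTGAcccagctgcctc

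Crygs (chr16:22811593-22811622, minus strand): gggtgccttgatTCAGCAgagcctacaatg

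Mip (chr10:128225666-128225695, plus strand): cgcccctcccccTGCTGAggagagagaaaa

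Bfsp1 (chr2:143863343-143863372, minus strand): cccgagacagccTCAGCAacatggtattat

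The half-sites begin at positions −108 (Cryaa), −84 (Crybb1), −200 (Crygs), −132 (Mip) and −187 (Bfsp1) from the start site. None of these 5 genes had an unadjusted p under 0.05 between the genotypes in either fit.

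Fiber genes for membrane, junctions and cytoskeleton lay mostly below 0, with 6 of 7 measured genes and a median of −0.09. The median was 0.02 without heterozygous replicate 1, −0.06 without wild-type replicate 3, and −0.18 and −0.19 without heterozygous replicate 2 or 3. For all 12393 genes the median was −0.01 and 6570 lay below 0. Gja3, which encodes connexin 46 of fiber gap junctions, read 291, 813 and 404 in wild-type replicates 1, 2 and 3 and 183, 583 and 279 in the heterozygous ones. The groups overlapped, and each heterozygous sample was lower than its pair (−0.56; unadjusted p = 0.323 without and 0.00141 with the block, adjusted p = 0.285 with it). Cdh2 (N-cadherin) differed by −0.16 ± 0.17 at its brighter probe set (unadjusted p = 0.374). Its dimmer probe set, of median signal 827, was lower in 3 of 3 pairs (−0.34 ± 0.23; limma unadjusted p = 0.198, and 0.0262 with the block). Like Hsf4, Gja3 was brightest in replicate 2 of both genotypes.

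Genes of cell cycle exit and organelle removal had a median of −0.18 over 7 measured genes, 5 of them below 0. The median was 0.07 without wild-type replicate 2, −0.04 without heterozygous replicate 1 and −0.11 without heterozygous replicate 3. Dnase2b, the nuclease that breaks down DNA of fiber nuclei, read 732, 971 and 677 in wild type and 557, 639 and 466 in heterozygous lenses, with no overlap between the groups. Its difference was −0.51 ± 0.19 (standard error; unadjusted p = 0.0334, adjusted p = 1.00), and it too is on the list that the study drew from these samples. For Dnase2b the paper also reported a lower level by quantitative RT-PCR on different RNA preparations. Hspb1, a small heat shock protein, lay in the other direction in all 3 pairs (0.59 ± 0.33, standard error; unadjusted p = 0.118, and 0.00793 with the block). The second Hspb1 probe set differed by 0.76 with no overlap between the groups (unadjusted p = 0.00840).

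**Figure D4:**
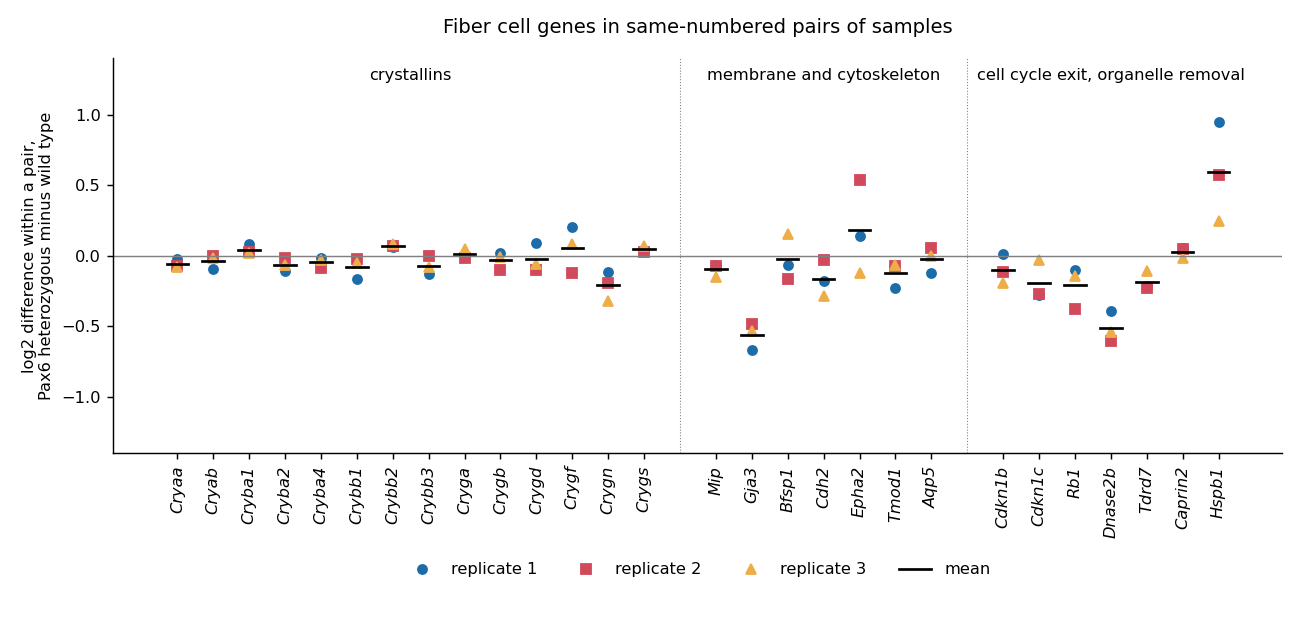
Log2 difference within each same-numbered pair of samples, Pax6 heterozygous minus wild type (vertical axis), for 28 fiber cell genes at their brightest probe sets, in 3 groups; colored symbols are pairs and black lines their means. Crystallins lie close to 0, Gja3 and Dnase2b below 0 and Hspb1 above 0 in all 3 pairs.

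The bright replicate 2 of Hsf4 was shared with some fiber genes. Of the 28 fiber genes in the 3 lists, 6 had an r of at least 0.9 with Hsf4 over the 6 samples (21.4%), against 9.71% of all genes compared, a description over samples that share replicate numbers. They were Cryaa, Crybb2, Gja3, Bfsp1, Tdrd7 and Aqp5, named after their values were seen. Crybb2 read 5363, 10318 and 5726 in wild-type replicates 1, 2 and 3 and 5612, 10808 and 6054 in the heterozygous ones, and Tdrd7, a Tudor protein of lens RNA granules, 2105, 3714 and 2046 and 1810, 3169 and 1901. For Prox1 there were 3 such genes (10.7%, against 2.56% of all genes compared). For Maf, Mafg, Pitx3 and Gata3 there were none, where 0.223%, 0.490%, 0.0890% and 0.557% of all genes compared reached it. All genes compared had a median signal of at least 100, a limit that was not set for the 28 fiber genes. Aqp5, which is among the 6 named for Hsf4, and Epha2 lay below that limit. The shares of fiber genes and of all genes compared thus rest on unlike filters.

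Markers of lens epithelium, the source of fiber cells, lay below 0 for 3 of 3 genes. Pdgfra, the receptor for platelet-derived growth factor on lens epithelium, read 603, 558 and 692 in wild type and 431, 392 and 405 in heterozygous lenses. As for Gata3, the groups did not overlap and replicate 2 was lowest in both genotypes (−0.59 ± 0.13, standard error; unadjusted p = 0.00292, adjusted p = 1.00). A second Pdgfra probe set was at background. Cdh1 (E-cadherin) was lower in each pair (−0.48 ± 0.30; unadjusted p = 0.157). Foxe3 read within the range of the olfactory receptors apart from heterozygous replicate 3 at 14.7. The summed signal of these 3 markers was 1107 to 1561 in wild-type and 752 to 986 in heterozygous samples, and its part in the Gata3 and Mafg differences was not tested.

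Genes of neighboring tissues varied between the samples as well. The 8 measured genes of retina and neurons had summed signals of 679 to 741 in wild-type and 777 to 1399 in heterozygous samples, with 6 above 0. Their largest median pair difference, 0.86, was in the pair numbered 2, in which Gata3 was also farthest apart. Neurod1, a bHLH factor of neurons (0.69 ± 0.17), and Elavl4, a neuronal RNA-binding protein (−0.50 ± 0.13), had the smallest unadjusted p of this list (0.00644 and 0.00656, limma), and the other Elavl4 probe sets differed by −0.33 and 0.03. Pigment cell genes had sums of 2191 to 3457 and 1945 to 3220, and mesenchyme genes 235 to 728 and 258 to 1082. The smallest unadjusted p of the mesenchyme list were those of Foxc1, a forkhead factor of the anterior eye (0.96 ± 0.50, limma unadjusted p = 0.0995, and 0.000109 with the block, adjusted p = 0.196), and of Col1a1 (−0.996 ± 0.82 at its brighter and 0.10 at its dimmer probe set, unadjusted p = 0.266). For pigment cells they were those of Dct (0.27 ± 0.64, limma unadjusted p = 0.689) and Mitf (−0.10 ± 0.23, unadjusted p = 0.695). In replicate 1 of wild-type and heterozygous lenses their median deviations from the genotype means were 0.63 and 0.59 for pigment and 0.66 and 1.32 for mesenchyme, and those of endothelium 0.49 and 0.61. Without both samples numbered 1, which was tried after seeing the data, Gata3 differed by −0.74 (unadjusted p = 0.0403) and the Mafg probe sets by −0.30 and −0.36 (unadjusted p = 0.113 and 0.254).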

How the data were processed

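Lens RNA of 3 wild-type and 3 Pax6 heterozygous newborn mice was amplified, labeled with biotin and hybridized to Affymetrix mouse arrays, 1 array per sample. As deposited, the table holds RMA signal intensities made by the authors, on the linear scale; the version of RMA is not given in the sources used here, and arrays give no count or depth. Log2 signals were taken with no further normalization, 64 control probe sets were left out, and genes were joined through the platform annotation, in which 20380 probe sets pair with a single gene. Ratios of probe sets near background or near saturation can be compressed.

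Genotypes were compared by the moderated test of limma 3.58.1 (R 4.3.3), with Benjamini-Hochberg adjustment over 22626 probe sets and a threshold of 0.05. Samples with the same replicate number had correlations of their deviations from the genotype means of 0.645, 0.734 and 0.604, and so varied together. Those with different numbers had correlations from −0.496 to −0.0751. Deviations from a genotype mean cancel within the genotype, so these negative values partly follow from the calculation. The sources do not say what a replicate number stands for. The steps were tested on simulated data. The alternatives were the methods' t-test, other normalizations, filters and priors, array weights, the replicate block, 1 probe set per gene, and leaving out samples.

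The 6 genes, the gene lists and the naming rule were chosen with earlier results of these data known. Named were all probe sets of the 6 genes and of Pax6, the 2 genes with the smallest p in a list, and the 2 genes most like each member; a few others were chosen after their values were seen. A gene is represented by its probe set with the highest mean log2 signal. Promoters came from RefSeq (GRCm38.p6). Figures were drawn with matplotlib 3.10.9.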

Additional observations from a re-analysis of the deposited data

How the results depend on the processing

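Gata3 and both Mafg probe sets stayed below 0 under every alternative in which they were tested, Gata3 from −0.77 to −0.49 with an unadjusted p of 0.0403 or less, and the Mafg probe sets from −0.43 to −0.30 and from −0.65 to −0.36. Adjusted p values of the 7 probe sets were 0.264 or more throughout. Over all probe sets, 2 passed the adjusted threshold with the replicate block and 0 otherwise. Counts at an unadjusted p under 0.05 were 2042 with the block (1472, 1709 and 1918 when the pair numbered 1, 2 or 3 was left out as well; leaving out pairs was chosen after seeing the data), 125 and 87 among probe sets with a median signal of at least 50 and 100, 268 with 1 probe set per gene, and 315 to 598 when any 1 sample was left out. Of the member probe sets, 4 had an unadjusted p under 0.05 with the block. Without the pair numbered 1 there were 2 (the brighter Mafg probe set and Hsf4 were lost), without the pair numbered 2 there were 3 (Hsf4 was lost), and without the pair numbered 3 there were 4, with Hsf4 lost and Prox1 gained. Prox1 then stood at −0.36 with a limma p of 0.0423 and an adjusted p of 0.585. Without the block there was 1 at a median signal of at least 100, with an intensity trend and robust prior or without both samples numbered 1, and 1 to 3 when any 1 sample was left out; the single one was the brighter Mafg probe set at a median signal of at least 100, and otherwise Gata3. Directions turned for the others. Leaving out 1 sample gave −0.78 to 0.29 for Hsf4, −0.46 to 0.12 for Prox1 and −0.10 to 0.0255 for Pitx3. Pitx3 stood at 0.0034 with array weights and at 0.0405 and 0.0594 with the block and without the pair numbered 2 or 3, and Maf at 0.0066 without both samples numbered 1, with or without the block. Leaving out 1 sample also turned the median of the crystallins (−0.10 to 0.03), of the other lens regulators (−0.09 to 0.03), of the relatives in other families (−0.10 to 0.08), of the fiber membrane genes (−0.19 to 0.02) and of the organelle removal genes (−0.24 to 0.07). The medians of macrophage (−0.11 to 0.99), mesenchyme (−0.73 to 0.35) and pigment cell genes (−0.27 to 0.42) turned as well. So did those of T cell genes (−0.11 to 0.03) and of cornea and skin epithelium (−0.06 to 0.0077). The cause was not tested. The number of arrays, 3 per genotype, limits the precision, and for Maf and Pitx3 so does the low signal over background.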

Other observations

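In the heterozygous lenses the spread between mice of the brighter Mafg probe set was larger than in wild type, with SDs of 26.5 and 3.85 in signal (8.41% and 0.950% of the mean, n = 3 mice each); the difference between the SDs was not tested. For Hsf4 the SDs were 70.7% and 70.4% of the mean, and for Prox1 33.5% and 33.7%.

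The other Pax6 probe sets did not all lie on the side of the brightest one. The one of median signal 119 was lower in 3 of 3 pairs (−0.69; unadjusted p = 0.146, and 0.000589 with the block, adjusted p = 0.246), and the one of median signal 60.3 was higher in 3 of 3 pairs (0.19; unadjusted p = 0.418, and 0.119 with the block). The others, of median signals 25.3 and 10.6, differed by −0.48 (unadjusted p = 0.0807) and −0.11 (unadjusted p = 0.421).

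Among the promoters of fiber membrane and cytoskeleton genes, 5 of 12 held the Maf half-site TGCTGA (41.7%), and among those of cell cycle exit and organelle removal genes 1 of 8 (12.5%), against 19.5% of all promoters. The heat shock element core GAANNTTC was found in 2 of the 8 promoters of cell cycle exit and organelle removal genes (25%), those of Dnase2b and Hspb1. None of the 12 fiber membrane and cytoskeleton promoters and none of the 15 crystallin promoters held it, against 7.86% of all promoters.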
